A study of Mus musculus with 4 samples.

Results

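The mitotic and G2 phase genes are 44 named genes whose products start, carry out or end cell division. They were taken by symbol from the 24421 gene columns of 4 single-cell tables, and every one of the 44 was found. The cells came from mice on a C57/BL6 background and were sorted on their surface proteins, CD138+ and B220-, as plasma cells are. The VQ lymph node sample (VQ_LN, 1 library) and the VQ bone marrow samples (VQ_BM, 2 libraries) held donor-derived myeloma cells from recipients, with the genotype given as V{kappa}*MYC, Nras LSL Q61R/+ and IgG1-Cre. V{kappa}*MYC is a MYC transgene under kappa light chain control, LSL marks an Nras allele that Cre must switch on, and IgG1-Cre is expressed from the IgG1 heavy chain locus in germinal centre B cells. The wild-type bone marrow sample (WT_BM, 1 library) was described as an age-matched control, with no age stated. The labels do not say whether the VQ_BM libraries came from separate recipients. The p-values rest on the spread between those 2 libraries, shared over genes rather than taken gene by gene, and that spread may be technical.

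Cyclin-dependent kinase 1 (CDK1), switched on by its cyclins, drives a cell from G2 into mitosis. The Aurora and Polo kinases then build the spindle, condensins and topoisomerase II compact the chromosomes, and the spindle checkpoint holds back the anaphase-promoting complex (APC/C) until every kinetochore is attached. Normal plasma cells have left the cell cycle, whereas B cell precursors in the marrow divide.

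Each library was split by the share of its unique molecular identifiers (UMIs) that came from Jchain, the joining chain of secreted antibody. Cells with at least 5% were called Jchain-high and the others Jchain-low. WT_BM gave 106 Jchain-high and 57 Jchain-low cells. The VQ cells used here were Jchain-low, with 185 cells in VQ_LN and 226 and 170 cells in the VQ_BM libraries. The summed UMIs were 803752 in VQ_LN, 1045005 and 444437 in VQ_BM, 204002 in WT_BM Jchain-high cells and 136251 in WT_BM Jchain-low cells. No cell barcode was shared between libraries. Plasma cell markers were detected in all 5 sums, 12 or 13 of the 13. Their level was 15267 counts per 1000000 UMIs (CPM) in VQ_LN and 13918 and 14670 in VQ_BM. It was 221370 in WT_BM Jchain-high cells and 9248 in WT_BM Jchain-low cells. Jchain itself is among the 13 and gave most of the marker UMIs in WT_BM Jchain-high cells. The gap between Jchain-high and Jchain-low sums was therefore set in large part by the split. These levels do not show how far the other markers differed. The B cell precursor markers had 1 UMI in each VQ sum, 31 in WT_BM Jchain-high cells and 700 in WT_BM Jchain-low cells, and 699 of those 700 lay in 26 cells with at least 2 UMIs over that list. Neutrophil markers had 12 UMIs in VQ_LN, 1052 and 1289 in VQ_BM, 13 in WT_BM Jchain-high cells and 982 in WT_BM Jchain-low cells. Erythroid markers were at 0 in every sum.

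Mitotic and G2 genes were read at a high level in the VQ cells of both sites and at a low level in the Jchain-high wild-type cells. The members had 3796 CPM in VQ_LN (95% Poisson interval 3662 to 3933) and 4370.3 (4244 to 4499) and 4223 (4034 to 4419) in VQ_BM, against 461 (372 to 564) in WT_BM Jchain-high cells. WT_BM Jchain-low cells stood with the VQ cells, at 3875 CPM (3552 to 4220.3). Every member had a UMI in each VQ sum, against 22 of the 44 in WT_BM Jchain-high cells and 43 of the 44 in WT_BM Jchain-low cells. These intervals cover counting error only.

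In a quasi-likelihood test with edgeR, 33 members rose in VQ_BM against WT_BM Jchain-high cells and 0 fell, at an adjusted p under 0.05. Over all 8048 genes tested, 17.7% were called higher and 13.8% lower in the same comparison. In VQ_LN, 30 members rose against the same wild-type cells and 0 fell, where 17.0% of all genes were called higher and 13.3% lower. Both comparisons share the wild-type sum. Of the 44 members, 41 passed the filter on low counts, and a member could pass on its VQ counts alone, so these counts describe the members and add no further support. With each sum of 0 set to 3 counts, the median log2 ratio of VQ_BM over WT_BM Jchain-high cells was 2.07 over the 44 members and 0.07 over all genes with a UMI. That median depends on the floor and on the cells used. It was 1.64 with a Jchain share of 10%, 1.10 with all cells together and -0.14 with cells thinned to 500 UMIs. At an unadjusted p under 0.05, 36 members were higher and 0 lower in VQ_BM with edgeR. The share of all genes at that threshold was not counted, so this count has no background beside it.

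The number of calls rests on the spread of the VQ_BM pair, the sole replicates, which gave edgeR a biological coefficient of variation of 0.0923. With the coefficient preset to 0.4, 17 members remained called higher in VQ_BM and 11 in VQ_LN. With every cell of each library, Jchain-high and Jchain-low together, 15 rose and 1 fell in VQ_BM and 12 rose and 2 fell in VQ_LN. Calls over all genes, in either direction, fell with the preset coefficient from 2532 to 576 of 8048 in VQ_BM. In VQ_LN they fell from 2436 to 371. With every cell together, 2428 and 2373 of 8569 genes were called. DESeq2 called 7 and 4 members, where it called 243 and 175 of all 8048 genes. It gave no adjusted p to 19 members in VQ_BM and 17 in VQ_LN. Those called higher in VQ_BM by edgeR, by DESeq2, with library totals in place of TMM scaling (a trimmed mean of gene ratios between sums), without the filter and with the preset coefficient were Ccna2, Cdk1, Cks1b, Aurkb, Birc5, Ube2c and Top2a.

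**Figure D1:**
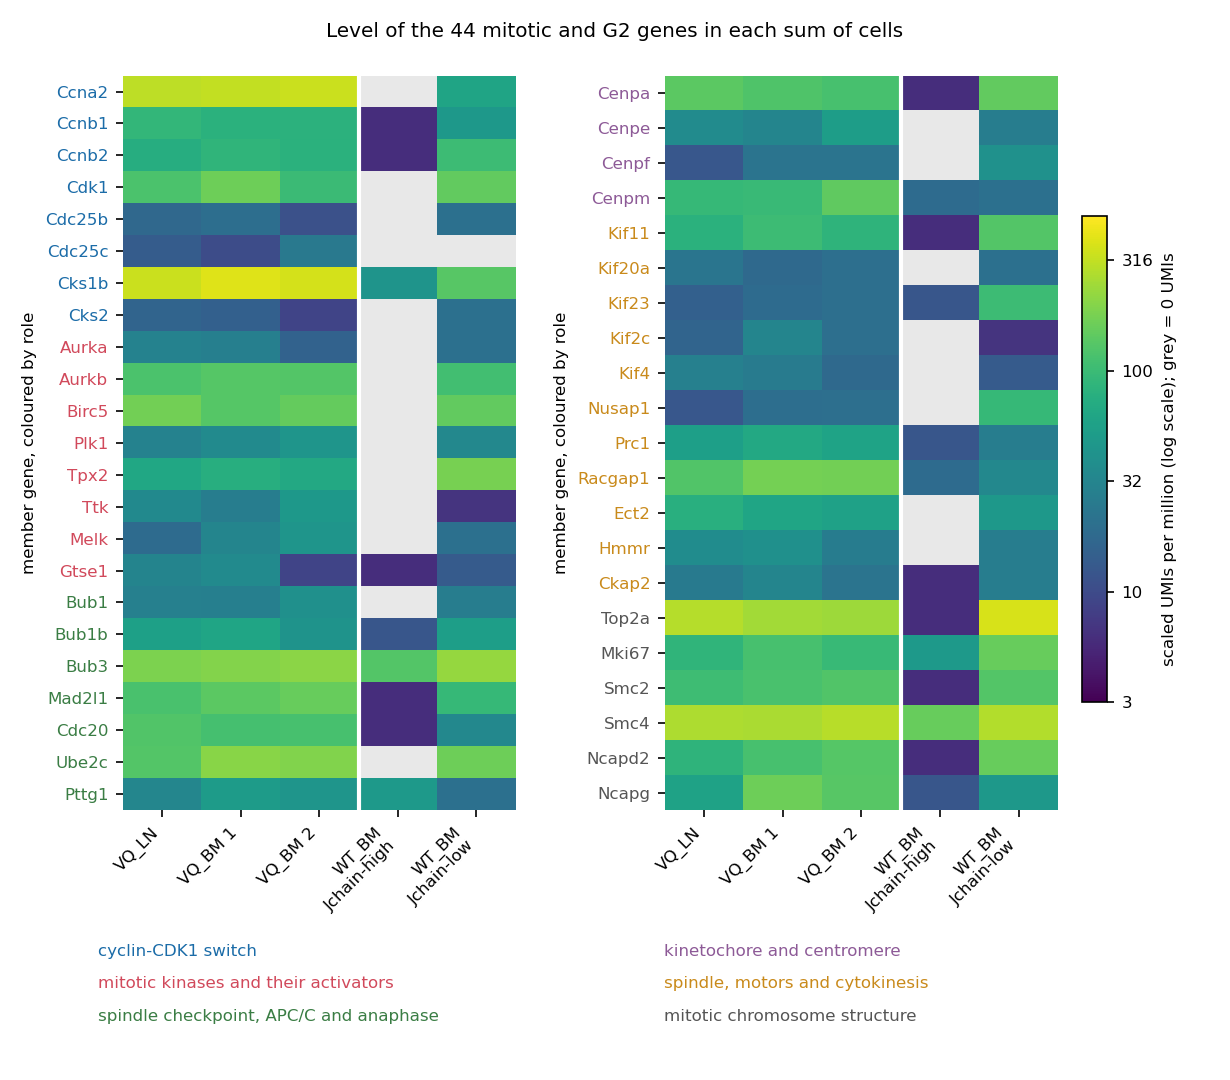
Level of each member (rows, coloured by role) in the 5 sums of cells (columns), in TMM-scaled CPM on a log colour scale, with grey for 0 UMIs. The 3 VQ columns and the WT_BM Jchain-low column are filled, with Cdc25c as the exception in WT_BM Jchain-low, while 22 members are grey in the WT_BM Jchain-high column.

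Promoters were looked up because many mitotic genes share a cell cycle-dependent element. RefSeq promoters (GRCm38.p6, 250 bases before to 50 after the start) were held for 38 of the 44 members, 42 promoters in all. Smc4, Tpx2, Ccna2, Cdc25c, Aurkb and Kif20a had no entry in the table used. The letters TTTGAA, the core of the CHR element through which MuvB complexes bind, stood on either strand in 69.0% of the members' promoters and in 17.9% of all 32851 promoters. CCAAT, the box bound by NF-Y, stood in 85.7% of them and in 37.4% of all promoters. Both were present in 66.7% of the members' promoters and in 6.95% of all. A TTTGAA and a CCAAT match can overlap by 1 letter, and a match is a description of the letters, not a site. TTTGAA was present in the promoters of 22 of the 29 members with a promoter called higher in VQ_BM, and of 4 of the 9 others.

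The member with the most UMIs and a promoter entry in each role is shown, for the 5 roles where that number was highest, with TTTGAA and CCAAT on either strand in capitals. The windows lie at chr3:89418242-89418541 (minus strand) for Cks1b, chr11:99024140-99024439 (minus strand) for Top2a, chr7:131560120-131560419 (plus strand) for Bub3, chr15:99651607-99651906 (minus strand) for Racgap1 and chr11:117848987-117849286 (plus strand) for Birc5.
Cks1b: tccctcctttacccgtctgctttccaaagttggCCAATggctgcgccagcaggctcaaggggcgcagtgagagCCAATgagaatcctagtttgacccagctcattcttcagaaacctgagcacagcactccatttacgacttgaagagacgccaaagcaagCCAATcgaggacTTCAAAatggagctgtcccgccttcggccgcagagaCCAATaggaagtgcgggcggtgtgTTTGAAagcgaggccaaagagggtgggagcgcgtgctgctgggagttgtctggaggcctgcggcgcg
Top2a: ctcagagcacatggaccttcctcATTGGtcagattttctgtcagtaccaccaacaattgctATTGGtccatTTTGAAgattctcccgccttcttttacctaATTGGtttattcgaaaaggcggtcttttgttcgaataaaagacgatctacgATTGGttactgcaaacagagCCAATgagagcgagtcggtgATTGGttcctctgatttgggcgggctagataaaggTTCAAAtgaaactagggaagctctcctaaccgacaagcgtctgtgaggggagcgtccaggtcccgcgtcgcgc
Bub3: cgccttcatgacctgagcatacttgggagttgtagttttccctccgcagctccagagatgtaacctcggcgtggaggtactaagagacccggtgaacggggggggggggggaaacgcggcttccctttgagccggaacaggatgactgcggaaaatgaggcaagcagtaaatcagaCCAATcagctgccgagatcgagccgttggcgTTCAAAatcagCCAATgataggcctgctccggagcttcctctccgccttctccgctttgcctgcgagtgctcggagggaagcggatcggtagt
Racgap1: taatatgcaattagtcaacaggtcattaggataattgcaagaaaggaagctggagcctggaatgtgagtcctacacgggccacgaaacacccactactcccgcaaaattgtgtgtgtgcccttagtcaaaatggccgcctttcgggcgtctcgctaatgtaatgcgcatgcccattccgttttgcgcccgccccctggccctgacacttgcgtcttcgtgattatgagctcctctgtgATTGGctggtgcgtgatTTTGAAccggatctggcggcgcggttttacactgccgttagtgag
Birc5: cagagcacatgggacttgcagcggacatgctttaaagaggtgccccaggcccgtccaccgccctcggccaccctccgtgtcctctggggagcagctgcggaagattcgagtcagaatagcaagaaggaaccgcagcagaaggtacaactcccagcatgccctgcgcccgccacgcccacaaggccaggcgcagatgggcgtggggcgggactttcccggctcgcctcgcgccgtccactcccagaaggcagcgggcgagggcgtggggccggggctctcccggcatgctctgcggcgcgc
Cks1b and Top2a each held 2 TTTGAA matches, with 4 CCAAT matches in Cks1b and 6 in Top2a. Bub3, which was not called in VQ_BM, held 1 TTTGAA match and 2 CCAAT matches in the window printed. Racgap1 held 1 of each. Birc5 held neither, although it was among the members called by all the tests above.

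The cyclin-CDK1 switch held 8 members. Their summed level was 964 scaled CPM, that is UMIs per 1000000 of the TMM effective library size, in VQ_LN and 1078 and 1001 in VQ_BM, against 55.4 in WT_BM Jchain-high cells and 535 in WT_BM Jchain-low cells. Ccna2, which encodes cyclin A2, had 302 scaled CPM in VQ_LN and 313 and 336 in VQ_BM, against 0 in WT_BM Jchain-high cells and 61.0 in WT_BM Jchain-low cells. Against the limit that a count of 0 allows (3 counts in the sum), it was at least 17.3-fold higher in VQ_BM than in WT_BM Jchain-high cells (adjusted p = 5.05e-21, edgeR). Cks1b, a small subunit that docks CDKs to their substrates, had 331 in VQ_LN and 389 and 358 in VQ_BM, against 43.1 and 135 in WT_BM Jchain-high and Jchain-low cells. Its log2 fold change in VQ_BM against WT_BM Jchain-high cells was 3.12 (SE 0.38, adjusted p = 2.45e-14, edgeR). Cdk1 itself had 119.9 in VQ_LN and 163 and 100.1 in VQ_BM, against 0 in WT_BM Jchain-high cells and 149 in WT_BM Jchain-low cells. It was at least 7.83-fold higher in VQ_BM (adjusted p = 8.15e-10, edgeR), and the VQ_BM libraries lay further apart for it than for Ccna2. Both mitotic B cyclins rose with them. Ccnb1 averaged 81.7 ± 0.836 scaled CPM in VQ_BM (SD, n = 2) and Ccnb2 83.4 ± 4.69, each against 6.16, a single UMI, in WT_BM Jchain-high cells. With 1 UMI in the divisor, the ratio was 13.2 for Ccnb1 (95% counting interval 2.33 to 527) and 13.8 for Ccnb2 (2.43 to 548). The CDK1-activating phosphatases were thinly read. Cdc25c had 11 UMIs in VQ_LN and 11 and 11 in VQ_BM, against 0 in both WT_BM sums, and was not called (adjusted p = 0.147, edgeR). Cdc25b and Cks2, another CDK-docking subunit, had at most 21 UMIs in any sum and were below the filter.

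Among the 8 mitotic kinases and their activators, WT_BM Jchain-high cells gave 1 UMI in all, from Gtse1. The summed level was 499 scaled CPM in VQ_LN and 494 and 507 in VQ_BM, against 6.16 in WT_BM Jchain-high cells and 528 in WT_BM Jchain-low cells. Birc5 encodes survivin, which seats Aurora B in the chromosomal passenger complex. It had 171 in VQ_LN and 131 and 151 in VQ_BM, against 0 and 149 in WT_BM Jchain-high and Jchain-low cells, and was at least 7.40-fold higher in VQ_BM than in the Jchain-high cells (adjusted p = 2.17e-09, edgeR). Aurkb, the Aurora B kinase itself, had 119 in VQ_LN and 131 and 129 in VQ_BM, against 0 and 108 in the WT_BM sums, and was at least 7.04-fold higher (adjusted p = 5.82e-09, edgeR). Each VQ sum lay above the sole WT_BM Jchain-high sum for both genes. This holds for sums and not for single cells, and the share of all genes for which it held was not counted. Tpx2, which activates Aurora A on spindle microtubules, had 64.9 in VQ_LN and 75.5 and 66.8 in VQ_BM, against 0 and 176 in the WT_BM sums. It was at least 3.95-fold higher in VQ_BM than in Jchain-high cells (adjusted p = 2.64e-05, edgeR). Aurka (the centrosomal Aurora A), Plk1 (a Polo kinase), Ttk (the kinase that starts checkpoint signalling) and Melk (a kinase of dividing cells) also rose. All 4 had 0 UMIs in WT_BM Jchain-high cells, and their at-least folds in VQ_BM were between 1.32 and 2.06. In VQ_LN, Melk was not called (adjusted p = 0.0698, edgeR). Gtse1, a G2 and S phase protein of microtubule tips, had 25 UMIs in VQ_LN and 38 and 4 in VQ_BM, against 1 and 2 in the WT_BM sums, and was not called (adjusted p = 0.167, edgeR).

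The 7 genes of the spindle checkpoint, the APC/C and anaphase moved unevenly. Ube2c, the ubiquitin-conjugating enzyme that starts chains for the APC/C, had 129 scaled CPM in VQ_LN and 204 and 194 in VQ_BM, against 0 and 163 in WT_BM Jchain-high and Jchain-low cells. It was at least 10.9-fold higher in VQ_BM than in Jchain-high cells (adjusted p = 1.54e-13, edgeR). Mad2l1, the checkpoint protein MAD2 that inhibits CDC20, had 117 in VQ_LN and 139.9 and 154 in VQ_BM, against 6.16 and 94.8 in the WT_BM sums. Cdc20, the APC/C activator, had 126 in VQ_LN and 113 and 116 in VQ_BM, against 6.16 and 33.9 in the WT_BM sums. Both had 1 UMI in Jchain-high cells, and the ratio of VQ_BM to them was 23.4 (95% counting interval 4.15 to 927; adjusted p = 3.65e-08, edgeR) for Mad2l1 and 18.5 (3.27 to 734; adjusted p = 2.34e-06) for Cdc20. Bub1 and Bub1b, kinase and pseudokinase of the same checkpoint, rose as well (adjusted p = 0.0116 and 0.0293, edgeR). Bub3, their partner, stood apart. It had 186 in VQ_LN and 196 and 207 in VQ_BM, against 129 and 224 in the WT_BM sums, and its log2 fold change of 0.63 (SE 0.32) in VQ_BM was not called (adjusted p = 0.119, edgeR). With library totals in place of TMM scaling Bub3 was called higher in VQ_BM and in VQ_LN. Pttg1, the securin that holds back the cohesin-cutting enzyme separase, had 32.5 in VQ_LN and 51.3 and 44.5 in VQ_BM, against 49.3 and 20.3 in the WT_BM sums. Its log2 fold change against Jchain-high cells was -0.01 (SE 0.56, adjusted p = 0.994, edgeR), and the VQ_LN and VQ_BM values lay on both sides of the wild-type one.

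At the kinetochore, Cenpa, the histone H3 variant that marks centromeres, had 141 scaled CPM in VQ_LN and 123 and 116 in VQ_BM, against 6.16 and 149 in WT_BM Jchain-high and Jchain-low cells. Cenpm, a subunit of the constitutive centromere network, had 94.9 in VQ_LN and 98.9 and 145 in VQ_BM, against 18.5 and 20.3 in the WT_BM sums. Jchain-high cells had 1 UMI of Cenpa and 3 of Cenpm. The ratio of VQ_BM to them was 19.6 (95% counting interval 3.48 to 779.9; adjusted p = 8.78e-07, edgeR) for Cenpa and 6.08 (2.05 to 29.8; adjusted p = 0.000168) for Cenpm. Both wild-type sums were low for Cenpm, whereas only the Jchain-high one was low for Cenpa. Cenpe, a kinetochore motor, had 36.2 in VQ_LN and 31.7 and 53.4 in VQ_BM, against 0 and 27.1 in the WT_BM sums, and also rose, at least 2.06-fold in VQ_BM (adjusted p = 0.0041, edgeR). Cenpf, a large kinetochore protein of G2 and mitosis, had 10 UMIs in VQ_LN and 24 and 10 in VQ_BM, against 0 and 6 in the WT_BM sums, and was not called (adjusted p = 0.051, edgeR).

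Of the 11 spindle, motor and cytokinesis genes, Racgap1, Kif11 and Ect2 had the most UMIs. Racgap1, a component of centralspindlin, had 127 scaled CPM in VQ_LN and 173 and 169 in VQ_BM, against 18.5 and 33.9 in WT_BM Jchain-high and Jchain-low cells. Kif11, the motor that pushes the spindle poles apart, had 79.9 in VQ_LN and 103 and 84.6 in VQ_BM, against 6.16 and 129 in the WT_BM sums. Prc1, which bundles microtubules at the spindle midzone, had 54.9 in VQ_LN and 67.2 and 60.1 in VQ_BM, against 12.3 and 27.1 in the WT_BM sums. Jchain-high cells had 3, 1 and 2 UMIs of these genes. The ratio of VQ_BM to them was 9.32 (95% counting interval 3.15 to 45.5; adjusted p = 1.17e-07, edgeR) for Racgap1, 15.8 (2.79 to 628; adjusted p = 2.73e-05) for Kif11 and 5.28 (1.42 to 44.2; adjusted p = 0.011) for Prc1. Ect2, the exchange factor that starts furrowing, had 77.4 in VQ_LN and 61.6 and 57.9 in VQ_BM, against 0 and 47.4 in the WT_BM sums, and was at least 3.27-fold higher in VQ_BM (adjusted p = 0.000172, edgeR). Hmmr (a spindle pole protein), Kif2c (a microtubule-shortening motor) and Kif4 (a chromosome-bound motor) rose too, at least 1.28-fold to 1.96-fold, and Kif2c was not called in VQ_LN (adjusted p = 0.107, edgeR). Kif23, the motor partner of Racgap1 in centralspindlin, had 12 UMIs in VQ_LN and 20 and 9 in VQ_BM, against 2 and 15 in the WT_BM sums, and was not called against Jchain-high cells (adjusted p = 0.691, edgeR). Nusap1, a microtubule-bundling protein, had 10 UMIs in VQ_LN and 21 and 9 in VQ_BM, against 0 and 14 in the WT_BM sums (adjusted p = 0.0641, edgeR). Ckap2, a spindle-associated protein, had 20 UMIs in VQ_LN and 34 and 10 in VQ_BM, against 1 and 4 in the WT_BM sums (adjusted p = 0.139, edgeR). Kif20a, a motor of cytokinesis, had at most 19 UMIs in any sum and was below the filter.

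The 6 genes of mitotic chromosome structure were all called higher in VQ_BM by edgeR. Top2a, topoisomerase II alpha, had 287 scaled CPM in VQ_LN and 249 and 238 in VQ_BM, against 6.16 and 366 in WT_BM Jchain-high and Jchain-low cells. The ratio of VQ_BM to the single UMI of Jchain-high cells was 39.9 (95% counting interval 7.12 to 1581; adjusted p = 1.74e-14, edgeR). Ncapg, a condensin I subunit, had 58.7 in VQ_LN and 164 and 134 in VQ_BM, against 12.3 and 47.4 in the WT_BM sums. The ratio of VQ_BM to the 2 UMIs of Jchain-high cells was 12.6 (3.45 to 105; adjusted p = 1.82e-07, edgeR). Smc4, a core condensin ATPase, had 268 in VQ_LN and 266 and 291 in VQ_BM, against 154 and 278 in the WT_BM sums, and rose less, with a log2 fold change of 0.84 (SE 0.29, adjusted p = 0.0161, edgeR). Smc2 and Ncapd2, its partners in condensin, had 1 UMI each in Jchain-high cells, against 122 ± 6.58 and 123 ± 11.7 scaled CPM in VQ_BM (SD, n = 2; adjusted p = 9.55e-07 and 1.05e-06, edgeR). Mki67, the Ki-67 protein that coats mitotic chromosomes and is the usual stain for dividing cells, had 86.2 in VQ_LN and 116 and 95.7 in VQ_BM, against 49.3 and 156 in the WT_BM sums. It was called higher in VQ_BM (log2 fold change 1.14, SE 0.47, adjusted p = 0.0473, edgeR) and not in VQ_LN (0.80, SE 0.50, adjusted p = 0.226). Mki67 lost its VQ_BM call with DESeq2, the preset coefficient, a Jchain share of 10%, all cells, or other types left out. Smc4 lost it with DESeq2, the preset coefficient, all cells and thinned cells. Of the 6, DESeq2 called Top2a alone in VQ_BM.

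**Figure D2:**
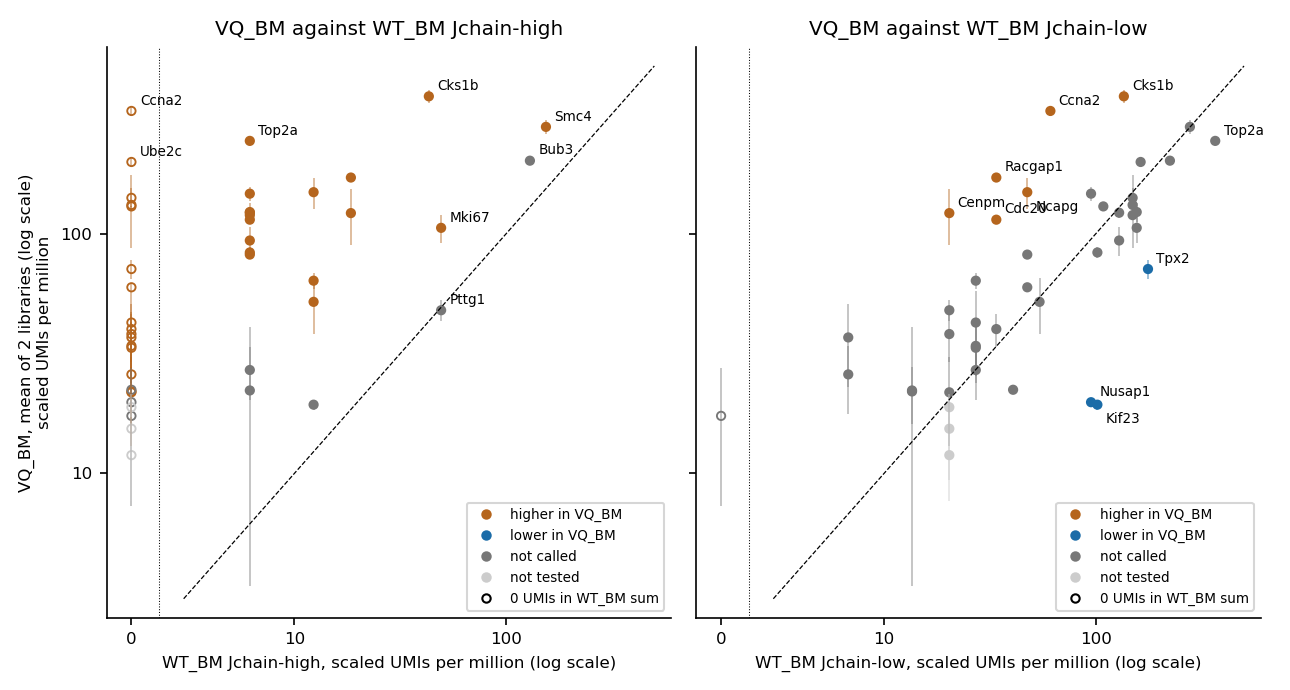
Mean level of each member in VQ_BM (vertical axis, with bars for the SD of 2 libraries) against its level in WT_BM Jchain-high cells (left) and WT_BM Jchain-low cells (right), in TMM-scaled CPM on log axes, with sums of 0 left of the dotted line and the dashed line at equal levels. On the left 33 members are coloured as higher and none as lower, and on the right 6 are higher and 3 lower.

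The members read in WT_BM Jchain-high cells were few. These cells gave 94 UMIs over 22 members, and 69 of the 94 (73.4%) came from 5 genes, Smc4 with 25, Bub3 with 21, Mki67 and Pttg1 with 8 each and Cks1b with 7. Of the other 17, 6 had 2 or 3 UMIs and 11 had 1. The 25 Smc4 UMIs lay in 20 of the 106 cells, and the 8 Pttg1 UMIs in 8 cells, with none above 1 per cell for Pttg1. Among the 5 genes with over 3 UMIs, Bub3 and Pttg1 were not called in VQ_BM, and Smc4 and Mki67 had fitted log2 fold changes of 0.84 and 1.14.

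Depth differed between the groups, with a median of 3978 UMIs per cell in VQ_LN and 4700.0 and 2646 in VQ_BM, against 1998.5 in WT_BM Jchain-high cells and 2046 in WT_BM Jchain-low cells. Each cell with at least 500 UMIs was therefore thinned to 500. UMIs of at least 2 different members were then found in 77 of 185 VQ_LN cells (41.6%, Clopper-Pearson 95% interval 34.4 to 49.1). In VQ_BM the shares were 114 of 221 (51.6%, 44.8 to 58.3) and 75 of 151 (49.7%, 41.4 to 57.9). WT_BM Jchain-high cells, taken here as the background for these shares, gave 5 of 100 (5.0%, 1.64 to 11.3). That these cells lack mitotic RNA was assumed and not tested. Averaged over all possible thinnings the share was 44.9% in VQ_LN and 51.4% and 48.3% in VQ_BM, against 2.42% in WT_BM Jchain-high cells, and with Jchain removed before thinning the background was 1.05%. Before thinning the shares were 85.4% in VQ_LN and 89.8% and 81.8% in VQ_BM, against 21.7% in WT_BM Jchain-high cells. At least 3 members were found in 22.2% of VQ_LN cells and in 30.3% and 23.2% of VQ_BM cells. None of the 100 WT_BM Jchain-high cells had 3, with a Clopper-Pearson upper limit of 3.62%. Ccna2 alone was found in 10.3% of thinned VQ_LN cells and in 14.9% and 15.2% of thinned VQ_BM cells, against 0 of 100 WT_BM Jchain-high cells. The thinned sums are small, and of the 15 members that passed the filter there, 8 were called higher in VQ_BM and 5 in VQ_LN. Over all 2553 genes that passed there, 445 and 416 were called in either direction.

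WT_BM Jchain-low cells spread their member UMIs in another way. At least 2 members were found in 8 of 46 thinned cells (17.4%, 7.82 to 31.4), although the summed level was close to that of the VQ cells. The 5 cells with the most held 72.0% of the member UMIs after thinning, against 33.5% in the top 19 of 185 VQ_LN cells and 30.3% and 29.8% in the top 23 of 221 and 16 of 151 VQ_BM cells. The variance of the member UMIs per cell over their mean was 1.96 in VQ_LN and 1.74 and 1.49 in VQ_BM, against 1.16 in WT_BM Jchain-high cells and 6.74 in WT_BM Jchain-low cells. No member UMI was found in 31.4% of thinned VQ_LN cells and 20.8% and 19.9% of thinned VQ_BM cells, against 80.0% of WT_BM Jchain-high cells and 69.6% of WT_BM Jchain-low cells.

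Most wild-type member UMIs lay in the cells marked by B cell precursor genes. Of the 622 member UMIs in all WT_BM cells, 506 (81.4%) were in the 26 precursor-marked cells, which gave 5377 member CPM (4918 to 5866). Without the cells marked as any other type, Jchain-low cells gave 769 CPM, and the VQ values were 3822 in VQ_LN and 4386 and 4266 in VQ_BM. The 31 Jchain-low cells without the precursor mark gave 522 CPM (327 to 790.4), within the interval of the Jchain-high cells. They were a mixed set, with 5 cells marked as another type. They held 966 of the 982 neutrophil marker UMIs and 62 of the 68 monocyte and macrophage marker UMIs of WT_BM Jchain-low cells. At least 2 members were found in 8 of 25 precursor-marked cells after thinning (32%, 14.9 to 53.5) and in 0 of 21 unmarked ones, with a Clopper-Pearson upper limit of 16.1%. The cell with the most had UMIs of 12 different members. The sort took B220- cells, and what brought precursor-marked cells into the wild-type library was not tested. All these sums come from 1 library and were not tested against each other.

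**Figure D3:**
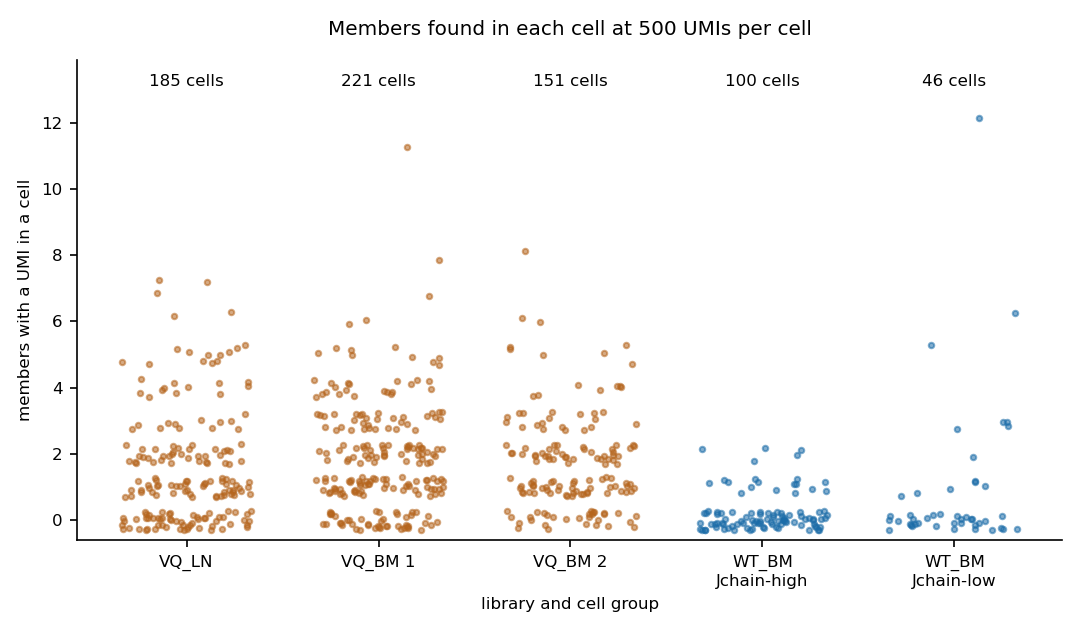
Number of different members with a UMI in each cell after thinning to 500 UMIs (vertical axis, points spread sideways and slightly up and down for visibility) for the 3 VQ libraries and the 2 WT_BM cell groups. VQ cells form a broad band up to 7 members in VQ_LN and 11 in VQ_BM, WT_BM Jchain-high cells reach 2, and a few WT_BM Jchain-low cells reach up to 12 while most sit at 0.

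Set against WT_BM Jchain-low cells, 6 members rose in VQ_BM, 3 fell and 32 were not called, where 27.7% of all genes were called, 14.2% higher and 13.6% lower. The share of members called higher was thus near that of all genes, and the share called lower was below that of all genes. Ccna2 rose (log2 fold change 2.40, SE 0.37, adjusted p = 4.34e-09, edgeR), with 325 ± 16 scaled CPM in VQ_BM (SD, n = 2) against 61.0 in WT_BM Jchain-low cells. Cks1b rose by less (1.47, SE 0.30, adjusted p = 1.3e-05). The others that rose were Racgap1 (2.33, SE 0.49), Cdc20 (1.74, SE 0.53), Ncapg (1.68, SE 0.46) and Cenpm, with 122 ± 32.4 scaled CPM in VQ_BM against 20.3, from 3 UMIs, in WT_BM Jchain-low cells. Tpx2 fell, with 71.1 ± 6.22 in VQ_BM against 176 in WT_BM Jchain-low cells (log2 fold change -1.28, SE 0.36, adjusted p = 0.00315, edgeR). Kif23 fell to 19.3 ± 0.970 in VQ_BM, against 102 in WT_BM Jchain-low cells, and Nusap1 to 19.8 ± 0.310, against 94.8 (log2 fold changes -2.40, SE 0.57, and -2.25, SE 0.59). The 26 Tpx2 UMIs of WT_BM Jchain-low cells lay in 6 cells, with 12 UMIs in a single cell, and the 14 Nusap1 UMIs in 5 cells. Against WT_BM Jchain-low cells, Kif23 and Racgap1, partners in centralspindlin, were thus called in opposite directions. Against WT_BM Jchain-high cells Kif23 had a log2 fold change of 0.62 (SE 1.04) in VQ_BM and was not called.

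These 9 calls depend on the wild-type cells chosen. With the 26 precursor-marked cells alone in place of WT_BM Jchain-low cells, a choice made after the data were seen, 5 members were called higher, all of them among the 6 above, and 5 lower. Cdc20 was then not called, and Top2a and Mki67 joined the lower ones. With every cell marked as another type left out, 15 members were called higher and 0 lower. DESeq2, which gave no adjusted p to 11 of the 41, and the preset coefficient called 0 in either direction. Over all 8048 genes they called 194 and 525, against 2233 in the main edgeR test. With other types left out 838 of 8027 genes were called, and with precursor-marked cells alone 2017 of 8035. At an unadjusted p under 0.05, edgeR gave 7 higher and 4 lower and DESeq2 3 higher and 0 lower. How many of all genes passed that threshold was not counted.

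The summed member level was slightly lower in VQ_LN than in both VQ_BM libraries, with a log2 ratio of -0.15, a difference that has no test of its own. Of the 41 members tested in VQ_LN against VQ_BM, 0 rose and 1 fell, where 3.32% of all genes were called, 1.95% higher and 1.37% lower. The share of members called was thus near that of all genes. At an unadjusted p under 0.05, edgeR gave 0 higher and 5 lower members. DESeq2, which gave no adjusted p to 29 of the 41, gave 0 in either direction. How many of all genes passed the unadjusted threshold was not counted. The median log2 ratio over the 44 members was also -0.15, against -0.01 over all genes with a UMI. The member that fell was Ncapg (chr5:45669919-45700546 in GRCm38, plus strand). It had 47 UMIs in VQ_LN, against 176 and 60 in VQ_BM, or 58.7 scaled CPM against 149 ± 21.7 (SD, n = 2). The log2 fold change was -1.38 (SE 0.25, adjusted p = 3.17e-06, edgeR). VQ_LN was below both VQ_BM libraries, and the share of all genes for which this held was not counted. The Ncapg log2 fold change was -1.18 without VQ_BM replicate 1 and -1.48 without replicate 2. Ncapg was found in 32 of 185 VQ_LN cells (17.3%), against 98 of 226 and 40 of 170 VQ_BM cells (43.4% and 23.5%) before thinning. The value was -1.34 with the preset coefficient and -1.88 in thinned cells, without a call in either, and DESeq2 gave Ncapg no adjusted p. The other condensin members were not called. Smc4 differed by -0.04 (SE 0.18) and Smc2 by -0.22 (SE 0.23), and Ncapd2 by -0.51 (SE 0.24, adjusted p = 0.315, edgeR). Ube2c was nearest to the threshold after Ncapg, with 129 in VQ_LN against 199 ± 7.55 in VQ_BM (log2 fold change -0.64, SE 0.21, adjusted p = 0.0568, edgeR), and was called lower with library totals. Neutrophil markers, at 12 UMIs in VQ_LN against 1052 and 1289 in VQ_BM, also differed between the sites. With cells marked as another type left out, they had 12 UMIs in VQ_LN and 38 and 7 in VQ_BM. The Ncapg log2 fold change was then -1.39 and the median log2 ratio over the 44 members -0.17. Their part in these values was not tested in any other way.

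**Figure D4:**
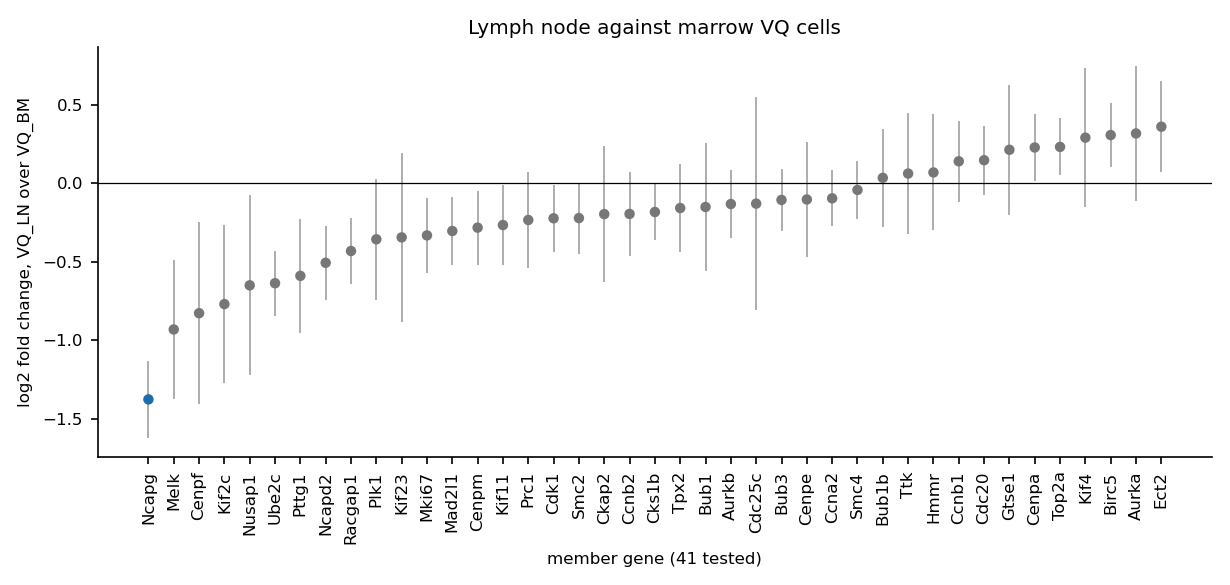
Fitted log2 fold change of VQ_LN over VQ_BM for the 41 members tested (horizontal axis, sorted), with bars for the standard error derived from the edgeR F statistic. Ncapg, in blue at -1.38, is the sole member called, and the others lie between -0.93 and 0.36.

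Other genes of the same machinery were read from 6 further lists that hold none of the 44. The share over all genes in this comparison was 17.7% higher and 13.8% lower, and no test compared the lists. Of the kinetochore and inner centromere genes, 15 of 25 tested were higher in VQ_BM than in WT_BM Jchain-high cells and 0 lower, against 9 higher and 0 lower in VQ_LN. Cdca8 and Incenp, partners of Aurkb and Birc5 in the chromosomal passenger complex, were at least 6.44-fold and 4.23-fold higher, and Spc24 of the NDC80 complex at least 5.62-fold. Spindle and cytokinesis genes gave 11 of 22 higher and 0 lower in VQ_BM, and 8 higher and 0 lower in VQ_LN. Stmn1, which destabilises microtubules, was at least 4.73-fold higher, and Cep55 and Anln of the cleavage furrow and midbody at least 2.46-fold and 2.35-fold. Of 15 regulators in the MuvB, DREAM and FOXM1 list, 9 rose and 1 fell in VQ_BM, and 6 rose and 1 fell in VQ_LN. Tfdp1, the dimer partner of E2F factors, was at least 8.18-fold higher, E2f8 at least 3.66-fold and Foxm1, an activator of mitotic genes, at least 3.59-fold. Rbl2, the pocket protein p130 of the repressive DREAM complex, fell to 38.2 and 22.3 scaled CPM in VQ_BM, against 86.2 in WT_BM Jchain-high cells (log2 fold change -1.38, SE 0.50, adjusted p = 0.0242, edgeR).

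The remaining lists of the machinery had shares of calls nearer to those of all genes. Of 17 other APC/C subunits and regulators 4 rose and 1 fell in VQ_BM, as in VQ_LN. Those that rose included Fbxo5, an APC/C inhibitor, at least 3.49-fold in VQ_BM, Espl1, which encodes separase, at least 2.10-fold, and the subunit Anapc11 by a log2 fold change of 2.26 (SE 0.55). Cdc16, another subunit, fell (log2 fold change -1.48, SE 0.43, adjusted p = 0.00309, edgeR). Of 13 condensin and cohesin genes 4 rose in VQ_BM, among them the condensin subunits Ncaph, at least 4.23-fold, and Ncapd3, 7.79-fold (95% counting interval 1.36 to 312), and the cohesin protector Cdca5, 6.62-fold (1.14 to 266). Jchain-high cells had 1 UMI each of Ncapd3 and Cdca5. The cohesin loader Nipbl fell (-0.79, SE 0.32, adjusted p = 0.0447, edgeR). In VQ_LN 1 of the 13 rose, Ncaph, and 1 fell, the cohesin subunit Stag2, named after its value was seen. Of 9 G2/M brakes and Greatwall pathway genes 1 rose in VQ_BM, the checkpoint kinase Chek1, and 1 fell, the phosphatase subunit Ppp2r2a. Chek1 had 23 UMIs in VQ_LN and 44 and 26 in VQ_BM, against 1 in WT_BM Jchain-high cells (adjusted p = 0.0184, edgeR). Ppp2r2a had a log2 fold change of -0.78 (adjusted p = 0.0307, edgeR). In VQ_LN 0 of the 9 rose and Ppp2r2a fell.

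DNA replication genes, read for comparison, gave 37 of 44 tested genes higher and 0 lower in VQ_BM against WT_BM Jchain-high cells. Their summed level was 4300.4 scaled CPM in VQ_LN and 4867 and 4762 in VQ_BM, against 856 in WT_BM Jchain-high cells and 3908 in WT_BM Jchain-low cells. Rfc4, of the clamp loader, was at least 9.71-fold higher, Lig1, a DNA ligase, at least 4.45-fold and Mcm10, a replication initiation factor, at least 3.66-fold. In VQ_LN 33 of the 44 were higher and 0 lower. The count of mitotic members called, 33 of 41, was near that of these S phase genes, and the difference was not tested. Against WT_BM Jchain-low cells, 8 of the 44 replication genes were higher and 2 lower.

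**Figure D5:**
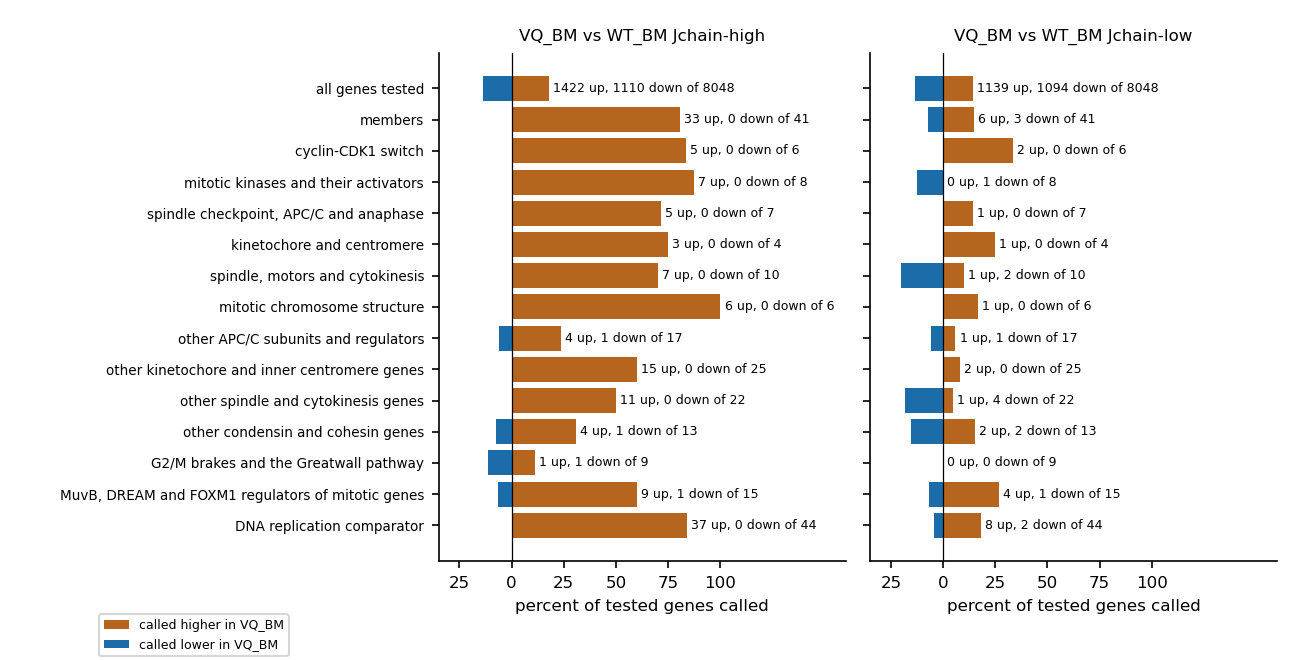
Percent of tested genes called higher (right of 0) and lower (left of 0) in VQ_BM against WT_BM Jchain-high cells (left panel) and WT_BM Jchain-low cells (right panel), for all genes, the members, their 6 roles, 6 further lists of the same machinery and the DNA replication list, with counts beside each bar. In the left panel the 6 roles reach between 7 of 10 and 6 of 6 genes higher, and in the right panel 9 of the 41 members are called.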

How the data were processed

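Single-cell 3′ RNA libraries (Bio-Rad ddSEQ with the Illumina SureCell kit, per the labels' protocols) were deposited by the authors as 4 tables of UMI counts per gene and cell, with no normalization. Per the submitters' processing notes, reads were placed on mm10, and the aligner is not given in the sources used here. Libraries held 185 cells and 803752 UMIs (VQ_LN), 245 cells and 1066884 UMIs and 188 cells and 457158 UMIs (VQ_BM), and 163 cells and 340253 UMIs (WT_BM). No doublet caller was run.

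The members, gene lists and the split at a Jchain share of 5% were chosen with earlier results of these data known. The 19 and 18 Jchain-high VQ_BM cells were left out of the comparisons. Counts were summed per library and cell group, filtered with filterByExpr, scaled with TMM and tested with edgeR 4.0.16 (R 4.3.3) by the quasi-likelihood test. It had 1 residual degree of freedom, from the VQ_BM pair. The median prior degrees of freedom were infinite, so genes were tested on a spread shared over genes and not on their own. A group of 1 sum is thereby assumed to vary as that pair does. WT_BM Jchain-high and Jchain-low cells share a library and were not tested against each other. P-values were adjusted by Benjamini and Hochberg over 8048 genes, with calls at 0.05. DESeq2 1.42.0 was the alternative test, and other settings are given at the end. A sum of 0 was set to a floor of 3 UMIs over that sum for at-least folds. Intervals are at 95% and, like the floors, cover counting error only. Scaled CPM are UMIs per 1000000 of the TMM effective library size. Each SE was derived as the absolute log2 fold change over the square root of the edgeR F statistic. The edgeR script was tested on simulated data first. Members named with values were the 3 with the most UMIs per role, every one not called in VQ_BM against WT_BM Jchain-high cells, and every one called in VQ_LN against VQ_BM. In the other lists they were the 3 called genes with the largest change and any called gene that went against its list. Cells were thinned with Python 3.11.15 and NumPy 2.4.6. A cell was marked as another type at 3 UMIs over 1 marker list. Between the VQ_BM libraries, a chi-square test of the counts gave 1.57 per degree of freedom over 9021 genes, more than sampling noise gives.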

Additional observations from a re-analysis of the deposited data

Results flagged for a closer look

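The Jchain-high cells of the VQ_BM libraries entered no comparison. The 19 such cells of replicate 1 gave 22 member UMIs, or 1006 CPM (95% Poisson interval 630.2 to 1522), above the 461 CPM of WT_BM Jchain-high cells (372 to 564), the wild-type cells of the same kind. The 18 such cells of replicate 2 gave 6 member UMIs, or 472 CPM (173 to 1027), so the excess was seen in 1 of the 2 libraries. In both, the level was below that of the Jchain-low cells of the same library, at 4370.3 and 4223 CPM.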

How the results depend on the processing

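The number of member calls changed with the test, the spread, the cells and the depth per cell. Members called higher in VQ_BM against WT_BM Jchain-high cells numbered 33, and 7 with DESeq2, 17 with a preset coefficient of variation, 15 (with 1 lower) with all cells together and 8 with thinned cells. In VQ_LN against WT_BM Jchain-high cells the count was 30, and 4, 11, 12 (with 2 lower) and 5 under the same settings. In VQ_BM against WT_BM Jchain-low cells it was 6 higher and 3 lower, and 0 and 0 with DESeq2 (11 of 41 without an adjusted p) and with the preset coefficient, 15 and 1 with all cells, 15 and 0 without other types, 1 and 0 with thinned cells, and 5 lower with precursor-marked cells. In VQ_LN against VQ_BM the count of lower members was 1, and 0 with the preset coefficient and thinned cells, 2 with library totals, and 0 with DESeq2, which gave no adjusted p to Ncapg. With all cells together WT_BM was a single sum. The VQ_BM values given here and below against Jchain-high and Jchain-low cells then came from the same comparison. Calls over all genes moved too. VQ_BM against WT_BM Jchain-high cells had 2532 of 8048, and 243 with DESeq2, 576 preset, 2428 of 8569 with all cells and 445 of 2553 thinned. VQ_LN had 2436, and 175, 371, 2373 and 416 in that order. VQ_BM against WT_BM Jchain-low cells had 2233, and 194 with DESeq2, 525 preset and 220 thinned. VQ_LN against VQ_BM had 267, and 14, 30 and 39 likewise. Thinned sums let fewer members pass the filter, and the cause of the other shifts was not tested.

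The log2 ratio of the summed level was 2.87 in VQ_BM against WT_BM Jchain-high cells. It was 2.81 with DESeq2 size factors, 3.24 with library totals, 2.96 unfiltered, 2.82 and 2.97 with Jchain shares of 2% and 10%, 1.03 with all cells and 2.61 thinned, and 2.82 to 2.88 without a VQ_BM replicate. In VQ_LN against WT_BM Jchain-high cells it was 2.72, and 2.67, 3.05, 2.81, 2.67, 2.82, 0.90 and 2.43 under the same settings in the same order, and 2.68 to 2.72 without a VQ_BM replicate. In VQ_BM against WT_BM Jchain-low cells it was 0.24, and 0.19, 0.14, 0.36, 0.16, 0.40, 1.03 and 0.95 likewise, with 2.89 without other types and -0.14 with precursor-marked cells. In VQ_LN against VQ_BM it was -0.15, and -0.19 with totals, -0.13 with all cells and -0.17 thinned. Library totals moved the median of all genes tested by 0.37, 0.33, -0.10 and -0.04 in these comparisons.

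The share of cells with at least 2 members was 69.6% in VQ_LN and 76.5% and 76.8% in VQ_BM when thinned to 1000 UMIs. With at least 1 member it was 68.6% in VQ_LN and 79.2% and 80.1% in VQ_BM, against 20.0% in WT_BM Jchain-high cells, and with at least 3 it was 22.2%, 30.3%, 23.2% and 0%. With Jchain removed it was 1.05% in WT_BM Jchain-high cells, and without other types 5.56% in WT_BM Jchain-low cells. WT_BM Jchain-low cells gave 4266 and 3396 member CPM with Jchain shares of 2% and 10%.

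Some single genes turned direction. With all cells, Tpx2 was -0.26 and Kif23 -1.56 in VQ_BM, and Tpx2 -0.39, Kif23 -1.88 and Nusap1 -1.86 in VQ_LN, against WT_BM. These values were positive against WT_BM Jchain-high cells. Birc5, at -0.11 (not called) in VQ_BM against WT_BM Jchain-low cells, was 0.92 with all cells. Without other types, WT_BM Jchain-low cells had 0 UMIs of Ccnb2 (8.33), Cdk1 (9.08), Birc5 (9.04), Tpx2 (8.15), Cenpa (8.87), Kif11 (8.48), Top2a (9.84), Smc2 (8.85) and Ncapd2 (8.79), whose fitted log2 values then depend on the prior count. No paired analysis was possible because replicate numbers exist within VQ_BM alone. The depth of 204002 UMIs in WT_BM Jchain-high cells limits what can be told of members with few UMIs there.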
